A study of Mus musculus with 6 samples.

Results

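The miR-191/miR-425 cluster is a pair of neighbouring microRNA hairpins, Mir191 and Mir425, that give 4 mature microRNAs: mmu-miR-191-5p, mmu-miR-191-3p, mmu-miR-425-5p and mmu-miR-425-3p. The members were chosen by name, as the rows of the count table for the 5p and 3p arms of these hairpins, and all 4 of them are among the 1028 mature microRNAs in the table. Small RNA was sequenced from a cultured mouse epicardial cell line, a line from the outer cell layer of the heart. KO cells (3 libraries) received a lentivirus with an sgRNA against Hdac3, a histone deacetylase gene, to knock it out with CRISPR/Cas9. EV cells (3 libraries) received an empty-vector lentivirus, so both groups were transduced. The labels give neither the number of clones nor whether the libraries of a group were grown separately, so the tests set differences against a library-to-library spread that may be only technical. The Hdac3 mRNA is not measured by small-RNA libraries, and the knockout was not checked here.

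A microRNA hairpin is cut out of a longer transcript by Drosha and trimmed by Dicer to a short duplex with a 5p and a 3p strand. One strand is usually kept by an Argonaute protein, and its seed, the bases near its 5′ end, selects target mRNAs by pairing. miR-191-5p is found in many tissues and is widely used as a reference microRNA when others are quantified, and human miR-425-5p is known to repress NPPA, the gene of atrial natriuretic peptide. Hdac3 removes acetyl groups from histones as the catalytic subunit of the NCoR and SMRT repressor complexes.

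The 4 mature sequences are shown because the reads were assigned by sequence and because none of the 4 shares a seed with another. Capitals mark the seed, bases 2 to 8 counted from the 5′ end, and the sequences are from RefSeq (GRCm38.p6).
miR-191-5p: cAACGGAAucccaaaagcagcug
miR-191-3p: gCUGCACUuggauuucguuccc
miR-425-5p: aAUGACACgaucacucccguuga
miR-425-3p: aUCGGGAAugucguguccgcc
Of the 1028 microRNAs in the table, 849 had a RefSeq sequence under the same name. Among these 849, 0 others carried the seed of any member, and 0 others shared the shorter stretch of bases 2 to 7. The closest other sequence differed by 6 mismatches from miR-191-5p, 6 from miR-191-3p, 7 from miR-425-5p and 6 from miR-425-3p, over ungapped overlaps of at least 16 bases. Each member sequence is listed at 1 place in the RefSeq microRNA table. Reads of the 4 arms were therefore far in sequence from those of any other microRNA with a known sequence in the table.

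The hairpins are shown to place the arms, which are in capitals, with the loop and flanks in lower case.
Mir191: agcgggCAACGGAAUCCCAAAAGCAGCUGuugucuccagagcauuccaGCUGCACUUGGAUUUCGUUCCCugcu
Mir425: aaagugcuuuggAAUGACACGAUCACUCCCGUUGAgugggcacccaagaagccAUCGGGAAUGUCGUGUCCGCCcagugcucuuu
In GRCm38 both lie on the plus strand of chromosome 9, Mir191 at chr9:108568319-108568392 and Mir425 at chr9:108568777-108568861, with 384 bp between them. The loop between the arms is 19 bases long in Mir191 and 18 in Mir425. In RefSeq both hairpins fall within the span of Dalrd3 (108567484 to 108572773), a gene named for an anticodon-binding domain of the kind found in some tRNA synthetases. GENCODE M21 places the Dalrd3 start farther downstream, at 108569886, 1024 bp after the end of Mir425. There both hairpins lie inside the single exon of a transcript of the lincRNA 4833445I07Rik (108567533 to 108569174, plus strand), outside any coding sequence, and Mir191 lies in an intron of a second transcript of that lincRNA. GENCODE also lists a microRNA gene on the opposite strand over Mir191, Gm24083. The host of the cluster therefore depends on the annotation, and the host transcripts were not measured in these libraries.

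**Figure D1:**
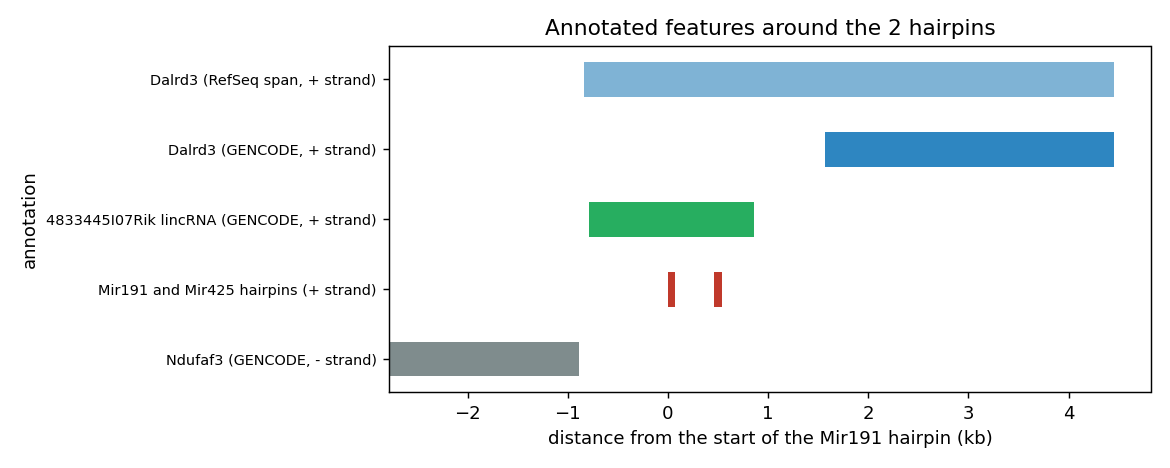
Map of annotated features around the hairpins, with distance from the start of Mir191 on the horizontal axis (kb) and 1 annotation per row. The RefSeq span of Dalrd3 covers both hairpins, whereas the GENCODE M21 gene starts 1024 bp after Mir425 and the lincRNA 4833445I07Rik covers both.

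KO 2 and EV 3 stood apart from the other libraries in earlier results of these data. miR-451a, a microRNA of red blood cells, was at 62.7 CPM in KO 2 and 54.7 CPM in EV 3, against 0.243 to 2.45 CPM in the other 4, where CPM are scaled counts as defined with the levels. The results of the 4 arms are also given without these libraries.

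None of the 4 arms was called between KO and EV cells. The main products of the hairpins, miR-191-5p and miR-425-5p, differed by less than the spread between libraries, with log2 fold changes of KO over EV of -0.07 and -0.04. Levels are CPM, that is, counts per 1000000 of the library total times a TMM factor, which corrects for differences in composition. The library totals ran from 12720548 to 13412774 counts in KO and from 11824881 to 12806873 in EV, and 1 read was worth 0.0637 to 0.0892 CPM. Of the 460 microRNAs that passed a filter on low counts, which included all 4 arms, 35 were called by edgeR's quasi-likelihood test at a Benjamini-Hochberg adjusted p of 0.05, or 7.61%, with 23 higher and 12 lower in KO. That split was 1 higher and 4 lower with library totals as the scaling, and 18 higher and 25 lower with library totals without miR-21a-5p. With 4 members a count of 0 called is not distinct from that background. At an unadjusted p under 0.05 there were 0 of the 4 arms and 23% of the 460. The KO and EV libraries did not overlap for 0 of the 4 arms and for 29.1% of the 460. The authors' deposited table of 78 microRNAs, with adjusted p-values of at most 0.0488, lists 0 of the 4 arms.

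mmu-miR-191-5p, the main strand of its hairpin, had 511, 534 and 539 CPM in KO 1, KO 2 and KO 3, and 546, 498 and 616 CPM in EV 1, EV 2 and EV 3. The KO libraries lay close together, inside the range of the EV libraries, of which EV 3 was highest and EV 2 lowest. The means were 528 ± 15.2 CPM in KO and 554 ± 59.4 CPM in EV (SD, n = 3 each). The log2 fold change was -0.07 (SE 0.08, edgeR adjusted p = 0.659), with a 95% interval of -0.26 to 0.12, which corresponds to 0.837-fold to 1.09-fold. miR-191-5p was 51st by mean CPM among the 1028 microRNAs. The raw counts behind it were 6298, 6695 and 6584 reads in KO, and 8568, 6106 and 6909 reads in EV.

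mmu-miR-425-5p, the main strand of the other hairpin, had 97.9, 90.8 and 114.6 CPM in KO 1, KO 2 and KO 3, and 93.7, 98.6 and 119 CPM in EV 1, EV 2 and EV 3. The groups overlapped over nearly their whole range, and 1 library of each group, KO 3 and EV 3, stood above the others. Its means were 101 ± 12.2 CPM in KO and 104 ± 13.5 CPM in EV (SD, n = 3 each). The log2 fold change was -0.04 (SE 0.12, edgeR adjusted p = 0.891, 95% interval -0.32 to 0.24), or 0.804-fold to 1.18-fold. It was 120th by mean CPM. A change of 1.5-fold in either direction lay outside the intervals of both 5p arms.

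mmu-miR-425-3p, the minor strand of Mir425, had 4.62, 5.26 and 4.83 CPM in KO 1, KO 2 and KO 3, and 8.41, 5.71 and 5.09 CPM in EV 1, EV 2 and EV 3. The groups overlapped, since EV 3 lay below KO 2, and EV 1 stood above all other libraries. The counts were 57, 66 and 59 reads in KO, and 132, 70 and 57 reads in EV. Its log2 fold change was -0.39 (SE 0.20, edgeR adjusted p = 0.273, 95% interval -0.85 to 0.06). Without EV 1 it was -0.14 (SE 0.16, edgeR adjusted p = 0.710), so most of the difference rested on that library. EV 1 also had the largest TMM factor, 1.23, against 0.919 to 1.04 in the other libraries, which lowers its CPM. With library totals alone EV 1 stood at 10.3 CPM, and the log2 fold change was -0.58 (SE 0.28, edgeR adjusted p = 0.276).

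mmu-miR-191-3p, the minor strand of Mir191, was near the limit of the depth, with 24, 21 and 12 reads in KO and 20, 15 and 14 reads in EV. That is 1.95, 1.67 and 0.983 CPM in KO 1, KO 2 and KO 3, against 1.27, 1.22 and 1.25 CPM in EV 1, EV 2 and EV 3. KO 3 lay below and KO 1 and KO 2 above the EV libraries. The exact 95% Poisson interval of the 12 reads in KO 3, 0.508 to 1.72 CPM, and that of the 24 reads in KO 1, 1.25 to 2.90 CPM, overlap. These Poisson intervals, and the binomial ones of shares, cover counting error only, because PCR copies were counted as reads. The log2 fold change was 0.29 (SE 0.33, edgeR adjusted p = 0.620), and its 95% interval, -0.45 to 1.03, runs from 0.734-fold to 2.05-fold. It was 0.09 (SE 0.38) without KO 1 and 0.53 (SE 0.31) without KO 3, with edgeR adjusted p of 0.902 and 0.385.

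**Figure D2:**
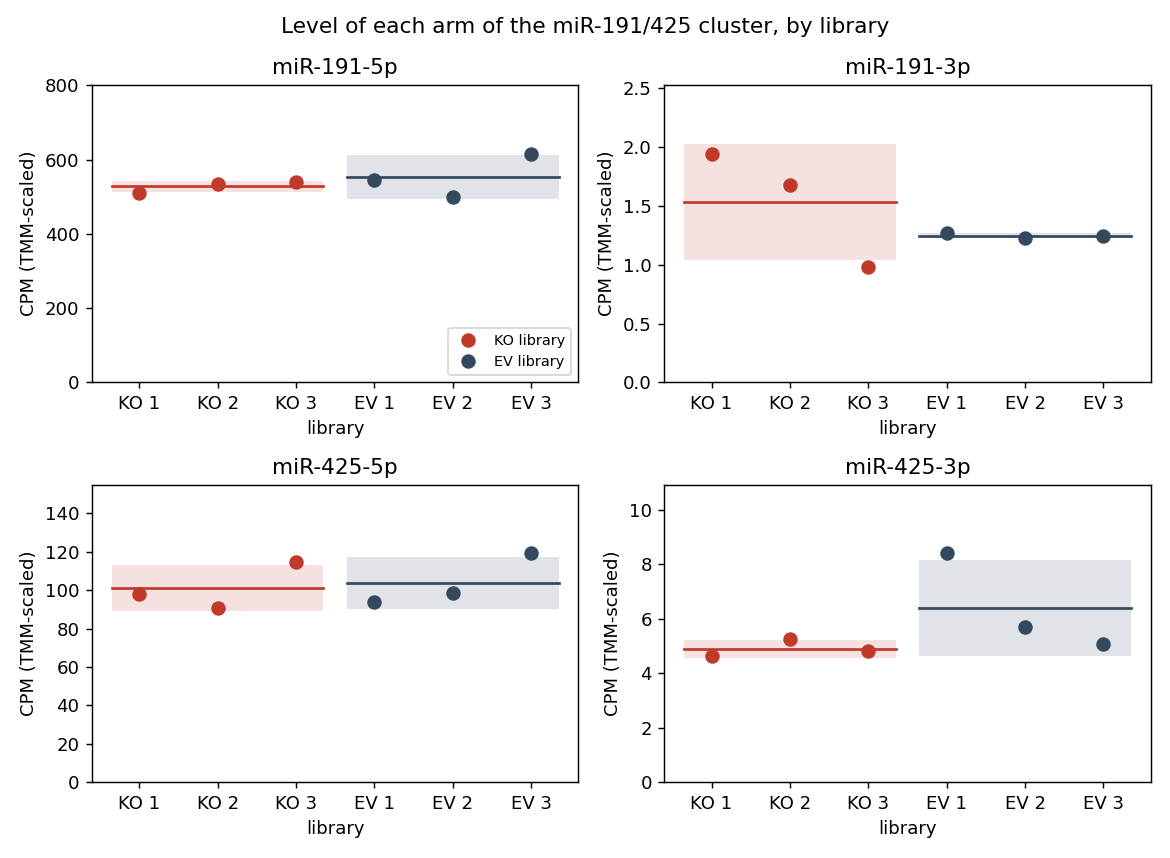
Level of each arm in CPM (vertical axis from 0) in the 3 KO and 3 EV libraries, 1 point per library. Lines show the group mean and shaded bands 1 SD. KO and EV points overlap in all 4 panels, and EV 1 stands apart for miR-425-3p at 8.41 CPM.

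Summed over the 4 arms, the cluster gave 635 ± 22.4 CPM in KO and 665 ± 70.4 CPM in EV (SD, n = 3 each). miR-191-5p made up 83.1% of that sum in KO and 83.2% in EV. The order of the 4 levels was the same in all 6 libraries: miR-191-5p, miR-425-5p, miR-425-3p, miR-191-3p. The ranges of neighbours in this order did not overlap over the 6 libraries. Levels of different microRNAs also carry the ligation bias of the library kit, so the order describes reads rather than molecules. Each microRNA read covers the whole molecule, and no length term was needed.

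The 5p arm dominated both hairpins in both groups. Of the Mir191 reads, 99.6%, 99.7% and 99.8% came from the 5p arm in KO 1, KO 2 and KO 3, against 99.8% in each of EV 1, EV 2 and EV 3. For Mir425 the 5p share was 95.5%, 94.5% and 95.95% in KO 1, KO 2 and KO 3, and 91.8%, 94.5% and 95.9% in EV 1, EV 2 and EV 3. EV 1 was the low library, with an exact 95% binomial interval of 90.31% to 93.06%, whose upper end lies just below the lowest lower end of the others, 93.08% in KO 2. Among 133 hairpins with both arms tested, Mir191 was 9th and Mir425 57th by the share of the dominant arm, where the median share was 91.0%. Mir191 was thus among the most one-sided of these 133 hairpins, while Mir425 was near their middle. Hairpins with an arm too low to be tested were not ranked, and these can be more one-sided.

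The arms of a hairpin were compared directly, because an arm that passes a test beside one that does not is no sign of a difference. The KO-over-EV log2 change of the 5p arm minus that of the 3p arm was -0.30 (SE 0.36) for Mir191 and 0.34 (SE 0.25) for Mir425, with adjusted p of 0.998 and 0.973 (limma's diffSplice over 133 hairpins, of which 0 were called and 6 had an unadjusted p under 0.05). Leaving out 1 library moved the Mir191 difference to -0.08 (SE 0.42) without KO 1 and -0.59 (SE 0.36) without KO 3. It moved the Mir425 difference to 0.03 (SE 0.26) without EV 1 and 0.59 (SE 0.24) without EV 3. Neither was called in any of these fits. Within libraries, the 5p to 3p ratio of Mir425 was 21.2, 17.2 and 23.7 in KO and 11.1, 17.3 and 23.4 in EV. The mean log2 ratio was higher in KO than in EV by 0.31 (two-sided exact permutation p = 0.5, the smallest possible being 0.1), by 0.03 without EV 1 and by 0.57 without EV 3. The Mir425 strand ratio therefore differed from library to library as much within EV as between the groups.

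The 2 hairpins kept nearly the same proportion to each other. Per 100 reads of miR-191-5p there were 19.2, 17.0 and 21.2 reads of miR-425-5p in KO 1, KO 2 and KO 3, and 17.2, 19.8 and 19.3 in EV 1, EV 2 and EV 3. The groups overlapped and the mean log2 ratio differed by 0.03 (two-sided exact permutation p = 1). This ratio does not depend on how libraries are scaled to each other. For the 3p arms the log2 ratio of miR-425-3p to miR-191-3p averaged 1.73 ± 0.53 in KO and 2.32 ± 0.36 in EV (SD, n = 3 each), a difference of -0.59 (two-sided exact permutation p = 0.3). The difference was -0.35 without KO 1 and -0.39 without EV 1, but -0.87 without KO 3 and -0.74 without EV 3. After adjustment over the 4 ratios tested, the Benjamini-Hochberg values of these exact permutation tests were 0.667 for 3 of them and 1 for the ratio of the 5p arms.

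**Figure D3:**
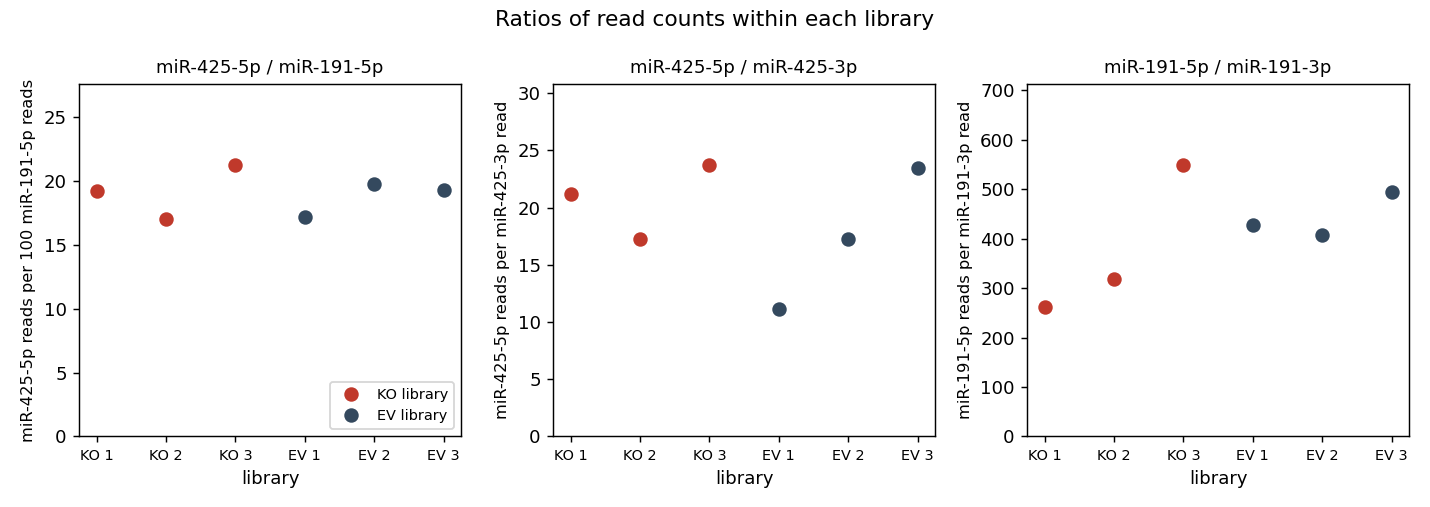
Ratios of read counts within each library, 1 point per library, KO in red and EV in dark blue, vertical axes from 0. From left to right the panels show miR-425-5p reads per 100 miR-191-5p reads, miR-425-5p reads per miR-425-3p read, and miR-191-5p reads per miR-191-3p read. The first ratio stays between 17.0 and 21.2 in all 6 libraries, and EV 1 is low in the second at 11.1.

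The direction of the small changes of the 5p arms was not fixed by the data. Without EV 3, the library in which both 5p arms were highest, miR-191-5p stood at 0.01 (SE 0.07) and miR-425-5p at 0.07 (SE 0.11). With library totals alone as the scaling, the median log2 change of all 460 microRNAs moved to -0.16 from -0.01, and miR-191-5p stood at -0.22 (SE 0.12), miR-425-5p at -0.18 (SE 0.13) and miR-425-3p at -0.58 (SE 0.28). Relative to that median the changes of the 5p arms remained small. Across 64 refits of the 4 arms, 0 gave a call, and the smallest edgeR adjusted p was 0.0865, for miR-425-3p without KO 2 and EV 3.

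**Figure D4:**
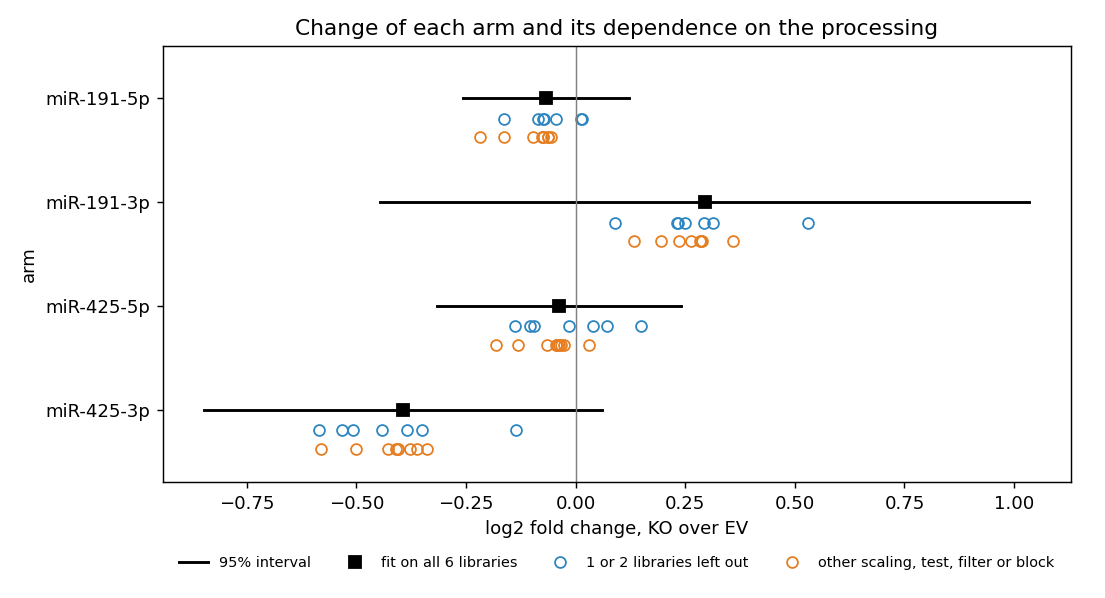
Log2 fold change of KO over EV for each arm (horizontal axis). Black squares and lines give the fit on all 6 libraries with its 95% interval, and open circles the same value with 1 or 2 libraries left out (blue) or another scaling, test, filter or block (orange). All 4 black intervals include 0, and the circles of miR-191-5p and miR-425-5p fall on both sides of 0.

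Without KO 2 and EV 3, the libraries with high miR-451a, 88 microRNAs were called instead of 35, and again 0 of the 4 arms, with miR-191-5p at 0.01 (SE 0.11), miR-425-5p at 0.15 (SE 0.12), miR-425-3p at -0.58 (SE 0.24) and miR-191-3p at 0.23 (SE 0.45). The difference between arms was then -0.14 (SE 0.43) for Mir191 and 0.71 (SE 0.28) for Mir425, with limma adjusted p of 0.972 and 0.251. Of the marker lists, the red blood cell sum was 5.92 to 77.8 CPM in KO and 8.73 to 68.0 CPM in EV. The neural sum was 16.8 to 58.9 CPM in KO and 13.1 to 54.6 CPM in EV, and the endothelial sum was 34.7 to 35.4 CPM in KO and 36.6 to 42.1 CPM in EV. The leukocyte sum was at most 0.558 CPM in KO and 1.55 CPM in EV. The muscle sum was at most 25.1 CPM in KO and at least 26.3 CPM in EV, and the epithelial sum was 17.4 to 19.1 CPM in KO and 29.2 to 34.4 CPM in EV. The endothelial, muscle and epithelial sums thus did not overlap between the groups, where 29.1% of the 460 single microRNAs did not. Members of a list could differ in direction. In the muscle list miR-206-3p had means of 20.2 CPM in KO and 25.7 CPM in EV, and miR-1a-3p 2.05 and 0.992 CPM. In the endothelial list miR-126a-3p had 31.8 and 35.8 CPM, and miR-126a-5p 3.15 and 2.81 CPM. The part of these sums in the values of the 4 arms was not tested. The sum of 5 mesenchymal microRNAs, miR-21a-5p included, was 761489 to 833933 CPM in KO and 589456 to 837452 CPM in EV. These lists hold no marker particular to epicardium, so the cell type label was not tested by them.

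Because miR-191-5p often serves as a reference, it was set beside 20 microRNAs of that use, itself included, all of which were tested. Of the 20, 1 was called higher in KO and 0 lower, where 5% of all 460 were called higher and 2.61% lower. At an unadjusted edgeR p under 0.05 there were 7 of the 20 and 23% of all 460. The median log2 change of the 20 was 0.08 against -0.01 for all tested. It was -0.08 with library totals as the scaling and -0.02 with library totals without miR-21a-5p. miR-191-5p was 7th by level and 5th by smallness of the change in this list, behind miR-103-3p, miR-30e-5p, let-7a-5p and miR-151-3p. The microRNA that rose was miR-30c-5p, with 585 ± 13.4 CPM in KO and 440.0 ± 63.0 CPM in EV (SD, n = 3 each). Its log2 change was 0.41 (SE 0.10, edgeR adjusted p = 0.0314). The list had 0 calls in 5 of the 6 fits that left out 1 library, 3 without EV 3, and 0 with library totals as the scaling. The 5 most abundant members had log2 changes of 0.24 (SE 0.09) for miR-26a-5p, 0.23 (SE 0.08) for miR-24-3p, -0.02 (SE 0.13) for miR-30e-5p, 0.05 (SE 0.08) for let-7a-5p and 0.05 (SE 0.07) for miR-151-3p. None of these 5 was called.

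**Figure D5:**
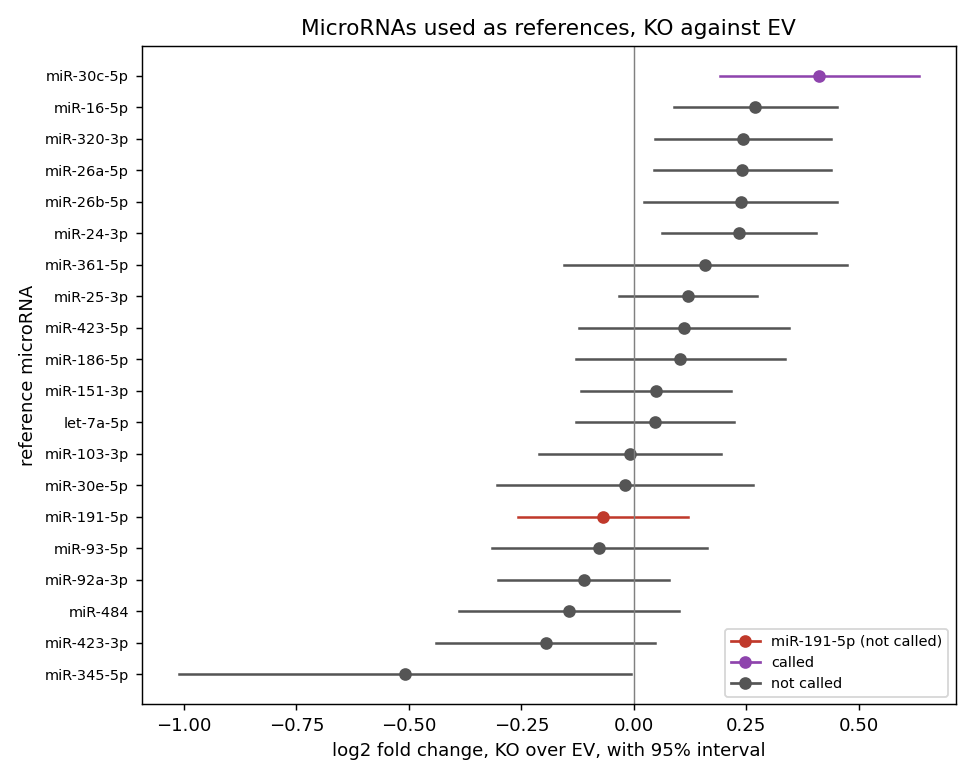
Log2 fold change of KO over EV with its 95% interval (horizontal axis) for 20 microRNAs used as references, ordered by the change. miR-191-5p, in red, is at -0.07 with an interval that includes 0, and miR-30c-5p, in purple, is the called member at 0.41.

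Over all 6 libraries the SD of log2 CPM was 0.11 for miR-191-5p and 0.16 for miR-425-5p. Among 121 tested microRNAs with a mean of at least 100 CPM, where the median SD was 0.15, these ranked 31st and 65th from the smallest. The highest library held 1.24 times the lowest for miR-191-5p and 1.31 times for miR-425-5p. With TMM scaling miR-191-5p was thus steadier than most abundant microRNAs, though not among the steadiest, and miR-425-5p was near the middle. With library totals alone miR-191-5p ran from 470 CPM in KO 1 to 669 CPM in EV 1, and microRNAs were not ranked at that scaling. When the libraries were scaled to the miR-191-5p count itself, an alternative chosen after the data were seen, 31 microRNAs were called (26 higher and 5 lower in KO), 27 of them among the 35, and the median change of all microRNAs was 0.05.

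The microRNA nearest to miR-191-5p in its levels over the libraries was miR-103-3p, another common reference. The measure was the root-mean-square difference of log2 CPM, each centred on its own mean over 6 libraries, among 247 microRNAs with a mean of at least 10 CPM. It was 0.05 for miR-103-3p, 0.06 for miR-199a-5p and 0.06 for miR-185-5p, where the median microRNA stood at 0.18. miR-103-3p had 481, 465 and 490 CPM in KO 1, KO 2 and KO 3, and 473, 427 and 545 CPM in EV 1, EV 2 and EV 3, with EV 3 highest and EV 2 lowest as for miR-191-5p. For miR-425-5p the closest were miR-182-5p at 0.06, miR-96-5p at 0.07 and miR-93-5p at 0.07, of which the first and second share a cluster of their own. The 5p arms of the miR-191/miR-425 cluster stood at 0.11 from each other, and 32 of the 247 microRNAs were closer to miR-191-5p and 15 closer to miR-425-5p. The 2 arms from neighbouring hairpins were thus closer than the median microRNA was (0.18 for miR-191-5p, 0.20 for miR-425-5p). They were not each other's nearest match, and all microRNAs here share the same 6 libraries and scaling factors. The measure is also small between microRNAs of small spread, so it does not show by itself that they moved together.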

How the data were processed

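Small-RNA libraries were made with a NEBNext adaptor-ligation kit and size-selected on a gel, per the labels' protocols. The deposited counts are the authors' whole-number reads per mature microRNA. The deposited TPM values, the authors' counts per 1000000 of the library total, were not used. The authors' deposited comparison table gives a mean normalized signal per group, a log2 fold change and p-values, and was used only to look up the members. Bowtie, DESeq 1.8.3 and mm10 are named in the submitters' processing notes. The miRBase release and the handling of reads that match several microRNAs are not given in the sources used here.

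Counts were compared with edgeR 4.0.16 in R 4.3.3 (TMM factors, filterByExpr with a minimum count of 10 and a minimum total of 15, two-sided quasi-likelihood F test, Benjamini-Hochberg over 460 microRNAs at 0.05). Arms were compared with limma 3.58.1. DESeq2 1.42.0 and limma-voom were alternatives. Scripts were tested on simulated counts. The named microRNAs were the members, the 3 nearest in pattern to each 5p arm with a mean of at least 10 CPM, and the called and the 5 most abundant members of a list of 20 references. The members and lists were chosen with earlier results of these data known. No replicate pair matched closely enough to be 1 library deposited again (lowest chi-square 9040 on 459 degrees of freedom, KO 1 and KO 3).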

Additional observations from a re-analysis of the deposited data

How the results depend on the processing

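Depth limits the 3p arms, above all miR-191-3p with 12 to 24 reads per library. Leaving out 1 library moved miR-191-5p between -0.16 and 0.01, miR-425-5p between -0.14 and 0.07, miR-191-3p between 0.09 and 0.53, miR-425-3p between -0.53 and -0.14, the number called among all microRNAs between 15 and 59 (from 35), and the number called in the reference list between 0 and 3 (from 1). miR-191-5p lay above 0 without EV 3 (0.0149) and without KO 2 and EV 3 (0.0124). Leaving out these 2 together and scaling to miR-191-5p were added after the data were seen. miR-425-5p lay above 0 without KO 2 (0.0393), without EV 3 (0.0711), without both (0.149) and when scaled to miR-191-5p (0.0295). miR-191-3p stayed above 0 and miR-425-3p below 0 in each setting with a test. Library totals alone gave 5 calls, no filter 56 and the fit without KO 2 and EV 3 88. The lower calls also moved by over 1.5 times with DESeq2 (21, from 12) and library totals without miR-21a-5p (25). In the reference list, library totals alone gave 0 calls and a median of -0.0750, library totals without miR-21a-5p a median of -0.0202 (from 0.0761), DESeq2 3 calls, the filter of 10 CPM 2 and the fit without KO 2 and EV 3 3 calls. The 3p arms could not be tested with the filter of 10 CPM, and DESeq2 gave no adjusted p for miR-191-3p. Libraries of the same replicate number did not show pairing (correlations of deviations 0.30, -0.04 and -0.22). With 3 libraries per group these values cannot exclude it. Across unlike numbers the correlations ran from -0.49 for KO 2 with EV 1 to 0.43 for KO 2 with EV 3. With the replicate block 34 microRNAs were called, with miR-191-5p at -0.06, miR-425-5p at -0.04, miR-425-3p at -0.36 and miR-191-3p at 0.29. The cause of these differences was not tested.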
